A study of Mus musculus with 24 samples.

Results

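Regions of open chromatin were compared between cultured mouse epidermal stem cells (EpdSCs) given a SOX9 that lacked the HMG domain (ΔHMG-SOX9), by which the factor contacts DNA, and cells kept without doxycycline (noDOX). The deposited lists held 53093 noDOX and 51701 ΔHMG-SOX9 ATAC-seq peaks, and peaks that shared at least 1 bp were joined into 61030 regions, of 134385 regions in all 12 lists of the series. A region was called opened when only the ΔHMG-SOX9 list had a peak in it (8105 regions), closed when only the noDOX list had one (9888) and kept when both did (43037). The study as a whole held 24 samples in 12 groups of 2 biological replicates, 4 of them in the groups compared here.

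Both groups were keratinocytes from the back skin of male CD1 mice. The noDOX cells were labelled K14rtTA; TRE-myc-Sox9 and day 0, and the other cells K14rtTA; TRE-myc-Sox9noHMG with doxycycline (DOX) at 1 µg per ml, for 3 days by the label of replicate 1 (the label of replicate 2 gives no day). K14rtTA is a DOX-dependent activator driven by the keratin 14 promoter, so both groups carried it. Per the study's methods the wild-type, ΔTA and ΔHMG constructs were all brought into Krt14-rtTA EpdSCs by lentivirus with puromycin selection before DOX, and the labels do not say whether the noDOX cells were made this way. No uninduced ΔHMG-SOX9 list was used here, so that DOX, the protein and the culture of origin cannot be told apart in this comparison.

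SOX9 is an HMG-box transcription factor that bends DNA and marks hair follicle stem cells. It is a pioneer factor, meaning that it can bind sites within closed chromatin, and the HMG domain is the part that contacts DNA. ATAC-seq uses the Tn5 transposase, which inserts adapters into accessible DNA, so that promoters and enhancers in use appear as peaks. In epidermis, p63 (encoded by Trp63) is the master regulator of the keratinocyte enhancers, and AP1, RUNX, TEAD and GATA factors act at them.

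The authors pooled both replicates before calling peaks, so that each group was 1 list, no spread between replicates could be had and no test across samples was possible. Values are the authors' normalized peak score, which has no unit and starts at 3. Per the study's methods, peak calling was normalized by a cited procedure because it depends on read number and depth. How that procedure scaled the score between lists is not given in the sources used here. Where scores of one region are set side by side, higher and lower thus refer to the scores as deposited. Intervals are 95% Wilson intervals of a share of regions and cover counting error only. The peak lists carry no read depth, so the depth behind each score is unknown. More open cells and more opening per cell cannot be told apart in a bulk list.

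The keratinocyte identity of both lists was examined at promoters. All 10 keratinocyte genes (Krt5, Krt14, Trp63, Itga6, Itgb4, Col17a1, Cdh1, Dsp, Sfn and Perp) had a peak within 1 kb of a TSS in both lists, with scores of 13.8 to 56.0 in noDOX and 10.5 to 62.1 in ΔHMG-SOX9. Of 6 fibroblast genes, Col1a1 and Pdgfra had one in both lists (9.80 to 13.5), and of 6 immune genes Csf1r alone did, with a score of 19.4 in noDOX and 51.4 in ΔHMG-SOX9. Of 4 endothelial genes Kdr had a peak in noDOX alone (7.75), and of 5 melanocyte genes Pmel had one in ΔHMG-SOX9 alone (25.3). The defining immune gene Ptprc, the endothelial genes Pecam1 and Cdh5 and the melanocyte genes Tyr, Dct and Mlana had none in either list.

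At Sox9 itself the strongest ΔHMG-SOX9 peak (score 71.9, chr11:112782592-112785493) began 7 bp inside the first coding base of the gene and ended 14 bp before the last. In noDOX a peak of score 21.8 covered the promoter and first exon and another of 3.71 lay within the coding part of exon 3. Reads from the introduced coding sequence and from the gene's own exons cannot be told apart in a peak list, so the kept region at Sox9 is not read as accessibility. Of the 8 regions nearest to Sox9, 5 were kept, 2 opened (scores 8.26 and 3.23, at 53570 bp upstream and 68495 bp downstream of the TSS) and 1 closed (5.07).

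The 4 closed regions with the highest noDOX score that lay over 1 kb from a TSS and held a match to a relaxed p53/p63 consensus are shown first, since this motif was more frequent in closed than in kept and in opened regions. Each line gives the nearest gene and the central 200 bp of the region, on the plus strand of GRCm38, with matches to SOX, AP1, RUNX and p53/p63 in capitals.
Ehf, chr2:103209577-103209776: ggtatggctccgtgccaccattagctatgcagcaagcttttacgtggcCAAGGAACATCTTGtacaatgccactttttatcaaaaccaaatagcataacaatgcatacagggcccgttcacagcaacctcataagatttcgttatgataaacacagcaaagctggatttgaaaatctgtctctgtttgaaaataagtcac
Lmtk2, chr5:144066170-144066369: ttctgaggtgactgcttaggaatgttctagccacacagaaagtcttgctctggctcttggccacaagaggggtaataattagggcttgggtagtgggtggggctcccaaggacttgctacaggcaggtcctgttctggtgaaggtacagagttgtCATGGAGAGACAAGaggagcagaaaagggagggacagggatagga
Maml2, chr9:13603543-13603742: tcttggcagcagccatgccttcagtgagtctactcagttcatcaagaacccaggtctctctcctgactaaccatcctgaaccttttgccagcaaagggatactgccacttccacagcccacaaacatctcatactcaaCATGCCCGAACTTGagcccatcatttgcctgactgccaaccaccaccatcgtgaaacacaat
Ntf3, chr6:126233766-126233965: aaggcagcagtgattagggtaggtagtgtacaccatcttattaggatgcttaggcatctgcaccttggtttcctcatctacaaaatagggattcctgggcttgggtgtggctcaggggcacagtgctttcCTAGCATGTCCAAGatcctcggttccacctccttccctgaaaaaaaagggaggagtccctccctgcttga

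The Ehf region had a noDOX score of 30.5, the Lmtk2 region 24.0, the Maml2 region 23.7 and the Ntf3 region 22.7, with no ΔHMG-SOX9 peak in any of them. Each held 1 p53/p63 match and no match to AP1, RUNX or SOX in this window. Ehf encodes an ETS-family factor of epithelia and Maml2 a coactivator of Notch signalling. Ehf lay 74083 bp and Ntf3 66956 bp away, both with the region outside any gene, while the Maml2 region was intronic. In the skin of mice the Maml2 region had a peak in all 5 in vivo lists, with scores of 26.7 to 39.3, and the Ntf3 region in none.

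The opened regions shown are those with the highest ΔHMG-SOX9 score over 1 kb from a TSS that held an AP1 match (Hibadh and Hhip) or a RUNX match (Dynlt1c and Gm10801), the motifs whose share was highest among opened regions.
Hibadh, chr6:52617370-52617569: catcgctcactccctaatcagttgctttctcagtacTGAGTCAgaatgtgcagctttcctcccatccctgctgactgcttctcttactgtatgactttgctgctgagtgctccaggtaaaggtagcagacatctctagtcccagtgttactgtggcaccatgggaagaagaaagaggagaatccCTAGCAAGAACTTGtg
Hhip, chr8:80032747-80032946: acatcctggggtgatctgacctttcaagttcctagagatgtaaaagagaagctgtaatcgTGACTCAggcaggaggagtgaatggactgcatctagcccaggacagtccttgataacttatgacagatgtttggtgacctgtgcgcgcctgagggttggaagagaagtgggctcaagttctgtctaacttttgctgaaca
Dynlt1c, chr17:6614844-6615043: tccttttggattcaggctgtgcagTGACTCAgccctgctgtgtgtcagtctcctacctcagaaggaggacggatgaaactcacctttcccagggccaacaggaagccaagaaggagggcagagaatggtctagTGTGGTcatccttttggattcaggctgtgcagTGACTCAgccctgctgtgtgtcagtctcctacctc
Gm10801, chr2:98298434-98298633: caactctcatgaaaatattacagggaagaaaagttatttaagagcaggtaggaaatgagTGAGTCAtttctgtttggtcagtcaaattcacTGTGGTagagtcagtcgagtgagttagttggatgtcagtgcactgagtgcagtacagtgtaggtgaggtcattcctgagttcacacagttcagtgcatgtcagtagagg

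Their ΔHMG-SOX9 scores were 25.5 at Hibadh, 24.0 at Hhip, 23.5 at Dynlt1c and 23.0 at Gm10801, with no noDOX peak. Hhip encodes a cell-surface inhibitor of Hedgehog signalling, and the region lay in an intron 25159 bp downstream of the TSS. The Hibadh window also held a p53/p63 match near its end. Dynlt1c belongs to a cluster of closely similar gene copies, where reads may be shared among copies, so that its value is uncertain. None of these regions had a peak in any of the 5 in vivo lists. Among the other culture lists each had a peak in ΔTA-SOX9 (18.1 to 48.8) and in AFOS (15.9 to 35.4). None had one in WT-SOX9 or SOX9+AFOS, and in SOX9+ARID1a only the Hibadh region did (3.46).

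Opened and closed regions were weak and narrow compared with kept ones. Opened regions made up 13.3% of all regions and closed regions 16.2%. As a share of each list, 18.7% of noDOX regions (18.4 to 19.0) were closed and 15.8% of ΔHMG-SOX9 regions (15.5 to 16.2) were opened. Closed regions outnumbered opened ones by a log2 ratio of opened over closed of -0.29. With both lists reduced to the 51701 highest-scoring peaks this ratio was -0.065, so the imbalance was smaller between lists of one length. The median score was 4.45 in opened regions and 4.55 in closed ones, and kept regions had 14.2 in noDOX and 13.2 in ΔHMG-SOX9. The median width was 227 bp in opened, 305 bp in closed and 619 bp in kept regions. Of the opened regions 62.6% scored below 5 and 0.234% scored 20 or more, and of the closed regions 58.8% and 0.576%.

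The share of regions found in 1 list alone was lower at higher scores. With each list split by score into 10 groups of peaks, 59.1% of noDOX regions were closed in group 1 (the lowest scores), 13.96% in group 5 and 0.0753% in group 10, which are 4 of 5309 regions. In the ΔHMG-SOX9 list 53.9% were opened in group 1, 9.25% in group 5, none of 5160 regions in group 9 and 1 of 5169 in group 10. Strong regions were thus almost all shared, and 752 closed and 200 opened regions had a score within 0.1 of the lowest one that the lists hold.

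**Figure D1:**
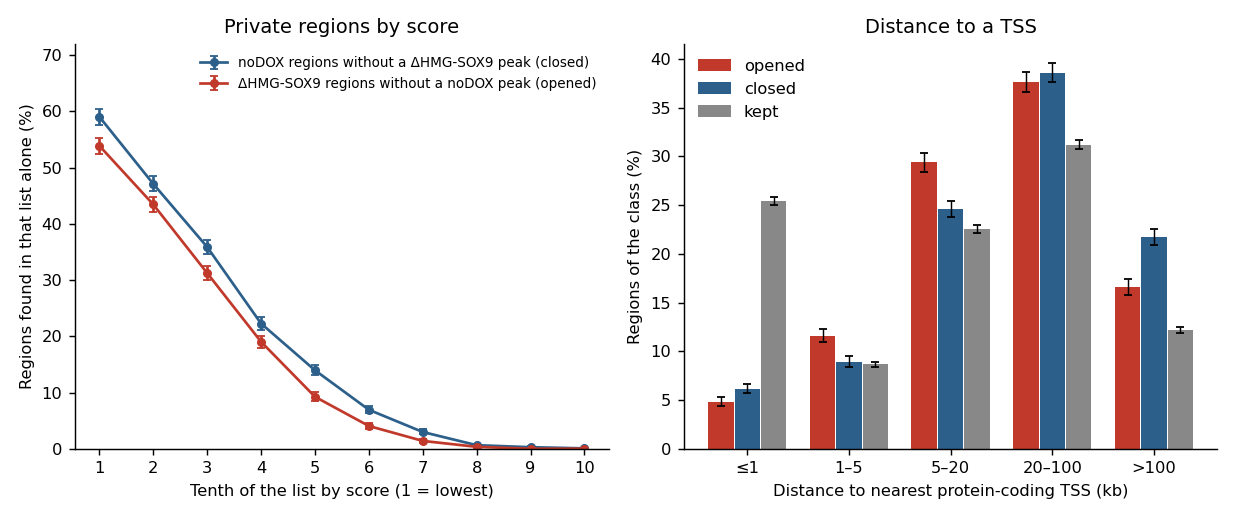
Left, percent of the regions of each list that were found in that list alone (closed for noDOX, opened for ΔHMG-SOX9) in 10 groups of rising peak score; right, percent of opened, closed and kept regions by distance (kb) from the region centre to the nearest protein-coding TSS. Bars on points and columns are 95% Wilson intervals, and the left panel falls from 59.1% and 53.9% in group 1 to under 1% in group 10, while 25.4% of kept regions lie within 1 kb of a TSS.

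Promoters were mostly kept. Within 1 kb of a protein-coding TSS lay 25.4% of kept regions (24.99 to 25.8), 6.18% of closed (5.72 to 6.67) and 4.79% of opened regions (4.34 to 5.27). Seen from the promoters, 91.6% of the 11931 regions near a TSS were kept, against 65.4% of the 49099 further away. The median distance was 14516 bp for kept, 23452 bp for opened and 30305 bp for closed regions. Opened regions lay in introns more often (48.1%, 47.0 to 49.2) than closed ones (41.7%, 40.7 to 42.7), and closed regions outside genes more often (49.3% against 43.8%). Among regions of like score, from 5 to 10, a limit chosen after seeing the data, 11.7% of kept, 5.64% of closed and 4.09% of opened regions were near a TSS, a kept share over 1.5 times lower than among all regions but still above the others.

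The 6 opened regions with the highest score lay near Htra1 (chr7:130977809-130978068, an intron of this secreted serine protease gene), Hibadh, Smarca2, Efna2, Zfp143 and Pnkd. The Htra1 region scored 55.3, and the other 5 scored between 24.6 and 25.5. Smarca2 encodes the SWI/SNF ATPase BRM, and its opened region (chr19:26700183-26700699) was intronic. Of these 6 none had a peak in any in vivo list. In the other culture lists, which share the noDOX control with this comparison, the Smarca2 region scored 61.8 in ΔTA-SOX9, 32.9 in AFOS and 5.06 in SOX9+ARID1a, with no peak in WT-SOX9 and SOX9+AFOS. The Zfp143 region scored 48.1 in ΔTA-SOX9, 39.1 in AFOS and 3.46 in SOX9+ARID1a. The Htra1 region scored 5.56 in WT-SOX9, 3.41 in AFOS and had no peak in the other 3.

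The 6 closed regions with the highest score lay at the TSSs of Gm14410, Dcun1d2 and Gm14326 and nearest to Gm31371 (219161 bp away), Slc1a1 and Mtap. Gm14410 had a noDOX score of 117, and the others ranged from 38.5 at Mtap to 51.3 at Dcun1d2. Dcun1d2 acts in cullin neddylation, and its promoter (chr8:13287173-13288594) had a peak of 40.2 to 73.1 in all 5 other culture lists and of 18.5 to 36.9 in all 5 in vivo lists, so that among the 12 lists ΔHMG-SOX9 alone lacked it. Gm14410 had a peak in WT-SOX9 (40.3) and in the 5 in vivo lists (58.5 to 64.8) and none in the other 4 culture lists. Slc1a1, which encodes a glutamate transporter, had a region 31588 bp upstream of the TSS with a noDOX score of 40.2, which scored 82.8 in SOX9+AFOS and 96.4 in SOX9+ARID1a but 14.5 in WT-SOX9, 10.4 in AFOS and 3.96 in ΔTA-SOX9, and had no peak in vivo.

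Gm14410, Gm14326, Gm14325 and Zfp970 belong to a cluster of zinc finger genes near the end of chromosome 2. In a window from 175 to 178.5 Mb, set after these values were seen, 11 of 17 regions were closed, 1 was opened and 5 were kept, and 9 of the 12 regions within 1 kb of a TSS were closed. All 3 kept regions at a TSS had a lower rank in ΔHMG-SOX9. These genes may be closely similar copies of one another, which was not measured here, so the placing of reads among them is uncertain.

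**Figure D2:**
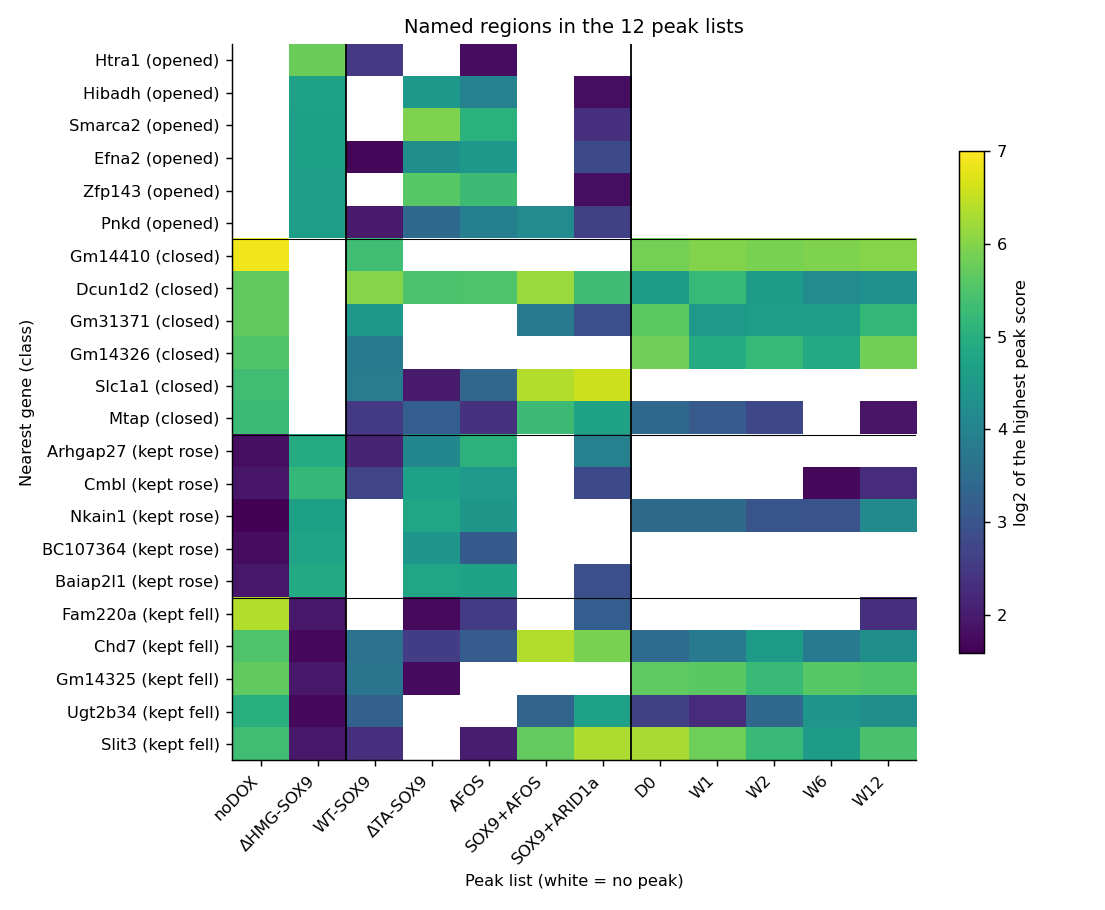
Log2 of the highest peak score in each of the 12 lists (columns) for the 6 opened and 6 closed regions of highest score and the 5 kept regions with the largest upward and the 5 with the largest downward shift in rank (rows, by nearest gene); white marks no peak. The opened regions are white in noDOX and in all in vivo lists, whereas 5 of the 6 closed regions have peaks in vivo.

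Of regions at a TSS, those opened with the highest score lay at Iqcn (18.3), Lnx1 (11.9), Isoc2b (11.8), Gpr17 (11.1), Egfl7 (10.9) and Lgals12 (10.5). Egfl7 encodes a secreted vascular factor and Lnx1 a ubiquitin ligase. The Isoc2b region lay wholly in repeat-masked sequence. The Lnx1 promoter had a peak in all 5 in vivo lists (11.3 to 17.7) and the Egfl7 promoter in none. The closed ones beside the zinc finger genes and Dcun1d2 lay at Rsph3a and Cyp3a13, both with a noDOX score of 20.4. Rsph3a encodes a protein of ciliary radial spokes and Cyp3a13 a cytochrome P450.

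The kept regions were compared by rank. The percentile rank of a region's score within its list was taken in each list, and the shift is the ΔHMG-SOX9 rank minus the noDOX rank, in points. Ranks within a list hold the median shift near 0 by construction, and it was -0.21 points over the 43037 kept regions, with an SD of 16.1, and the Spearman correlation between both scores was 0.85 across regions, which are not replicates. Near a TSS the SD was 10.4 points and further away 17.6. A shift of at least 25 points upward was found in 5.46% of kept regions and downward in 6.61%.

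The kept regions with the largest upward shift lay near Arhgap27 (3.44 in noDOX and 30.4 in ΔHMG-SOX9), Cmbl (3.79 and 36.6), Nkain1 (3.07 and 25.2), BC107364 (3.40 and 26.9) and Baiap2l1 (3.81 and 29.8). Each lay close to the lowest noDOX score. The largest downward shifts lay near Fam220a (83.3 in noDOX and 3.84 in ΔHMG-SOX9), Chd7 (45.5 and 3.23), Gm14325 (51.5 and 3.83), Ugt2b34 (32.3 and 3.23) and Slit3 (40.7 and 3.83). Slit3 encodes an axon guidance ligand, and this region in its intron had in vivo scores of 23.8 to 78.4. All 5 kept a ΔHMG-SOX9 peak only close to the lowest score. The Nkain1 region had a peak in all 5 in vivo lists (7.82 to 18.1), whereas those near Arhgap27, BC107364 and Baiap2l1 had none.

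Consensus letters were sought on both strands in the 200 bp around the centre of every region, a window that runs into flanking sequence where a region is narrower (the lower quartile of width was 162 bp in opened regions). The letters were ACAATGG or ACAATAG for SOX, TGACTCA for AP1, TGTGGT for RUNX, GGAATG for TEAD, AGATAA for GATA factors, GGGCGGG for KLF/SP, CCGGAAG for ETS, CCAATCA or CCAATGA for NFY, TGACGTCA for CRE and AGGTGTGA for TBX. CTCF, NFKB and p53/p63 were searched by longer patterns, the last a relaxed form that keeps only the core bases, and matches of different motifs may overlap.

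Closed regions held p53/p63 matches most often. These stood in 11.1% of closed regions (10.5 to 11.7), 8.38% of opened (7.79 to 9.001), 7.59% of kept (7.34 to 7.85) and 8.26% of all 61030. The closed share was above the kept share on 19 of 20 chromosomes and above the opened share on 18. Among regions over 1 kb from a TSS the shares were 11.4% closed, 8.59% opened and 9.15% kept, and among regions with a score of 5 to 10 they were 11.6%, 8.48% and 8.28%. Kept regions with a match had a median rank shift of -2.33 points, against -0.10 without one, and 42.0% of them had a higher rank in ΔHMG-SOX9, against 49.4%. With the whole region scanned, at median widths of 305 bp in closed and 619 bp in kept regions, the order turned, and the closed share was 3.45 percentage points lower than the kept one.

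SOX matches were also most frequent in closed regions, at 5.59% (5.16 to 6.06), with 4.61% in opened (4.18 to 5.09), 3.58% in kept (3.41 to 3.76) and 4.04% in all regions. The closed share was above the kept share on all 20 chromosomes. TEAD matches stood in 18.2% of closed, 16.9% of opened and 14.5% of kept regions. Over 1 kb from a TSS the TEAD shares were 18.8%, 17.3% and 17.3%, so opened and kept regions did not differ there. Kept regions with a SOX match had a median rank shift of -1.06 points and those with a TEAD match -0.96. With the whole region scanned the closed share of SOX matches was 2.41 percentage points lower than the kept one.

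RUNX and AP1 matches were most frequent in opened regions. RUNX matches stood in 20.7% of opened (19.8 to 21.6), 17.0% of closed (16.3 to 17.7), 15.1% of kept and 16.2% of all regions, and over 1 kb from a TSS in 21.2%, 17.5% and 18.0%. AP1 matches stood in 27.9% of opened (26.9 to 28.9), 25.2% of closed (24.4 to 26.1), 22.8% of kept and 23.9% of all regions. Over 1 kb from a TSS, however, the AP1 shares were 28.7% in opened, 26.3% in closed and 29.4% in kept regions, so the higher AP1 share of opened over kept regions was not found among distal regions. With the whole region scanned both differences turned, and the opened share was lower than the kept one by 13.0 percentage points for RUNX and 7.28 for AP1. GATA matches were found in 10.2% of opened regions, against 9.22% of closed and 7.82% of kept ones, and CTCF matches in 3.62%, 2.76% and 1.86%. Neither order held throughout, since among regions with a score of 5 to 10 the CTCF shares were 3.13% opened, 2.82% closed and 3.49% kept, and the closed share of GATA matches was below the kept one both there (8.99% and 9.11%) and over 1 kb from a TSS (9.57% and 9.70%).

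The motifs of GC-rich promoters were lowest outside kept regions. KLF/SP matches stood in 10.7% of kept regions, against 3.29% of opened and 4.23% of closed ones, and ETS matches in 3.54%, 1.28% and 1.08%. NFY matches stood in 4.43% of opened regions, 4.71% of closed and 4.95% of kept ones, and TBX matches in 1.38%, 1.16% and 1.15%. NFKB matches were lowest in closed regions (2.78%), with 3.66% in opened and 3.94% in kept ones, and CRE matches stood in 0.308%, 0.314% and 0.760% of opened, closed and kept regions.

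**Figure D3:**
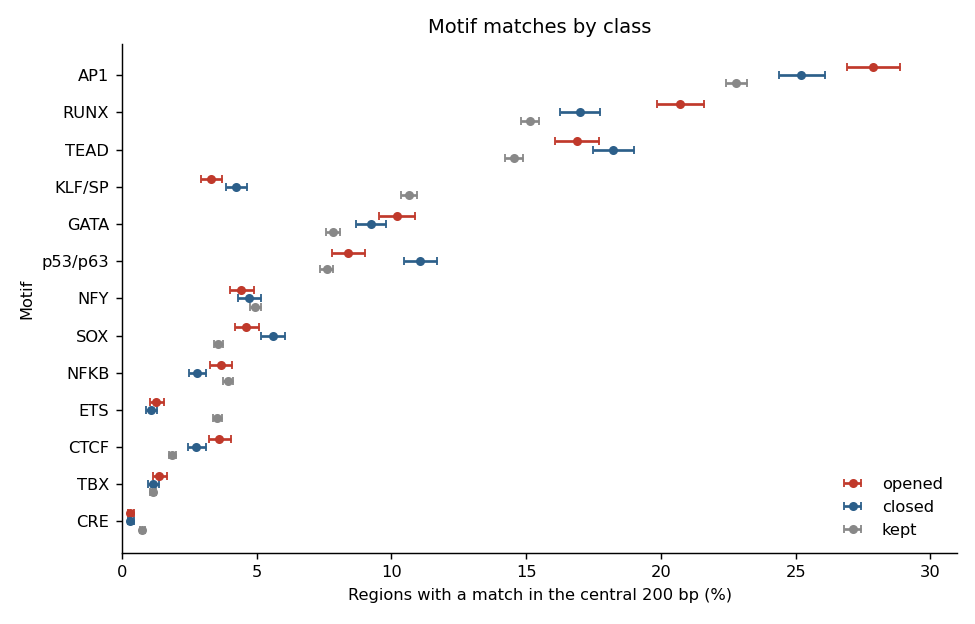
Percent of opened, closed and kept regions with at least 1 match to each motif (rows) in the central 200 bp; points are shares and bars 95% Wilson intervals. p53/p63 and SOX are highest in closed regions (11.1% and 5.59%), RUNX and AP1 in opened ones (20.7% and 27.9%), and KLF/SP and ETS in kept ones (10.7% and 3.54%).

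Regions were then assigned to the nearest protein-coding TSS within 100 kb, which took in 52295 regions of 15496 genes. Of these regions 12.9% were opened and 14.8% closed. At least 1 opened region was found at 4871 genes and at least 1 closed region at 5003, with both at 1816. The genes with the most opened regions were Sfi1 (12 of 27), Etl4 (10 of 34), Fam129b (7 of 18), Zfp608 (7 of 21) and Bcar3 (7 of 28), with opened scores of at most 8.16 at any of them. Sfi1 encodes a centrosome protein and Bcar3 a signalling adaptor of cell adhesion.

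The genes with the most closed regions were Foxp1 (14 of 63), Map2 (12 of 20), Filip1l (12 of 26), Psd3 (12 of 22) and Dlc1 (10 of 15). Foxp1 encodes a forkhead repressor, Map2 a microtubule-associated protein and Dlc1 a GTPase-activating protein. Psd3 and Dlc1 had no opened region. At Dlc1 the closed regions scored from 3.001 to 21.4 in noDOX, and the 5 kept regions all scored lower in ΔHMG-SOX9, among them the TSS region with 32.1 in noDOX and 17.7 in ΔHMG-SOX9. The kept regions of Filip1l had a median rank shift of -18.5 points and those of Foxp1 of 3.48.

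The 22 epidermal transcription factor genes had the highest share of closed and the lowest of opened regions among 19 gene lists. Of their 229 regions 53 were closed (23.1%, 18.2 to 29.0) and 16 opened (6.99%, 4.35 to 11.05), against 14.8% and 12.9% of all regions. More regions were closed than opened at 13 of these genes and fewer at 3. The chromosomes that hold these regions would give 15.5% closed. When regions were assigned by gene body with 10 kb upstream instead, the closed share was 0.042 points below that of all regions, and with peaks of a score of at least 5 it was 2.52 points above, so the excess was not found under either setting at its size of 8.34 points.

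Ehf had 6 closed, 6 kept and no opened regions. The closed regions scored 4.19, 5.29, 30.5, 9.81, 4.77 and 19.3 in noDOX from low to high coordinate. The 6 kept regions all scored lower in ΔHMG-SOX9, among them the intronic one with 63.4 in noDOX and 34.3 in ΔHMG-SOX9, the TSS region with 12.7 and 7.63, and one 22259 bp upstream with 22.01 and 3.29. At Ehf every region thus scored lower in ΔHMG-SOX9 or had no peak there, strong ones included. Maf, a bZIP factor of late differentiation, had 5 closed and no opened of 13 regions, with closed scores of 3.51 to 12.8. Its TSS region scored 26.02 in noDOX and 37.4 in ΔHMG-SOX9. Its kept regions, however, had a median rank shift of -11.1 points, and the strongest scored 57.3 in noDOX and 46.8 in ΔHMG-SOX9.

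Trp63 had 6 closed, 1 opened and 11 kept regions. The closed regions scored 3.37 to 5.35 and the opened one 3.15. The strongest kept region, 59255 bp upstream of the nearest TSS, scored 73.0 in noDOX and 32.0 in ΔHMG-SOX9, the intronic one at chr16:25779860-25780634 scored 47.7 and 30.5, and the TSS region 13.8 and 10.5. Of the 11 kept regions 9 were lower in ΔHMG-SOX9, with a median rank shift of -10.5 points. Trp63 lies on chromosome 16, whose kept regions as a whole had a median shift of -3.96. Hes1, a Notch target on the same chromosome, had 5 closed and 2 opened of 23 regions and a kept median of 3.34 points. Grhl2, a grainyhead factor of epithelial junctions, had 5 closed and 1 opened of 23.

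Gata3, which acts in epidermal differentiation, had 2 closed and 7 kept regions, and its TSS region scored 53.8 in noDOX and 68.1 in ΔHMG-SOX9. Its kept regions had a median rank shift of -4.81 points. Among them, the one 86394 bp downstream of the TSS scored 49.3 in noDOX and 38.5 in ΔHMG-SOX9. Krt5 had 1 closed region 3125 bp upstream (12.8 in noDOX) beside 5 kept ones, of which the one 1734 bp upstream scored 23.1 in noDOX and 42.0 in ΔHMG-SOX9. All 3 regions of Krt14 were kept, with 32.8 and 33.3 at the TSS. Both regions of Vim, the mesenchymal intermediate filament gene, were kept and lower in ΔHMG-SOX9, with 12.5 and 5.72 at one and 6.34 and 3.22 at the other.

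Basal keratinocyte and hemidesmosome genes, which anchor the cell to the basement membrane, had 9.15% of 142 regions closed (5.43 to 15.03) and 11.97% opened. Dst had 6 closed and 3 opened of 24 regions, Col17a1 2 and 4 of 16 and Plec 1 and 2 of 12. Genes of differentiation and the cornified envelope had 18.6% of 86 regions closed and 9.30% opened. Among them Abca12, a lipid transporter, had 3 opened regions (up to 13.7) and 2 closed of 18, Calml3 3 closed of 9, and Dsg1a, a desmosomal cadherin, all 3 of its regions closed with a TSS score of 10.1 in noDOX. Dsc1 had 2 closed of 7.

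Junction genes had 18.7% of 198 regions closed (13.9 to 24.7) and 9.09% opened (5.83 to 13.9). Dsp, which encodes desmoplakin, had 7 closed and 1 opened of 15 regions, but the closed ones scored only 3.35 to 10.8. Its TSS region scored 25.01 in noDOX and 30.0 in ΔHMG-SOX9, and its strongest region 55.0 and 75.2. Perp had 4 closed and 1 opened of 15 regions, Ctnnb1 2 and 3 of 11, and Ctnna1 1 and 4 of 15. The 4 strongest regions of Dsp thus scored higher in ΔHMG-SOX9, and the closed ones were weak.

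Of the genes of hair follicle stem cells 18.6% of 140 regions were closed and 15% opened. Runx1 had 6 closed and 2 opened of 22 regions, on chromosome 16. Nfatc1 had 2 closed and 3 opened of 14, Tcf7l2 3 and 1 of 13, and Nfib 2 and 2 of 8. Hedgehog genes had 18.0% of 61 regions closed and 8.20% opened, with 5 closed and no opened of 12 at Gli3, 3 and 2 of 7 at Shh, 2 and 0 of 7 at Ptch1 and 1 and 0 of 3 at Cdon. The opened region with the highest score in this list was that of Hhip printed above.

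Among signalling lists the Notch genes had 18.8% of 128 regions closed and 10.2% opened, with 5 closed and no opened of 17 at Maml2. More regions were closed than opened at 6 Notch genes and fewer at 4. The TGF-beta and BMP genes had 18.2% of 154 closed and 13.0% opened, and Smad3 had 5 of each among 24. WNT genes had 13.6% of 169 closed and 14.8% opened, with more opened than closed regions at 13 genes and fewer at 7. Ctnnb1 and Wnt4 each had 3 opened and 2 closed regions, and Dkk3 had 3 opened and no closed of 10. In contrast Fzd10, a WNT receptor, had 6 closed of 7 regions, including its TSS region (16.2 in noDOX), and its 1 kept region scored 33.9 in noDOX and 3.83 in ΔHMG-SOX9. Fzd10 lies on chromosome 5, where the closed share was 23.0%. The EGF receptor and its ligands had 13.7% of 117 closed and 10.3% opened, with 4 closed and no opened of 19 at Egfr. In this list more regions were closed than opened at 7 genes and fewer at 5.

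The keratinocyte activation and inflammation genes had 7.57% of 185 regions opened (4.56 to 12.3), below the 12.9% of all regions, and 14.1% closed. The opened share differed from that of all regions by -5.36 points, but by -2.13 with peaks of a score of at least 5 and by -3.53 by gene body, within its interval in both. Il1r1 had 6 closed and no opened of 12 regions, Ptgs2 5 and 0 of 18, Csf2 2 and 3 of 13 and Il1b 1 and 2 of 7. p53 targets had 19.9% of 136 closed (14.02 to 27.3) and 8.09% opened, with 4 closed and 3 opened of 19 at Gadd45a and 5 and 0 of 10 at Plk2. The unfolded protein and integrated stress response genes had 17.1% closed and 10.5% opened, heat shock genes 18.3% and 11.3%, NRF2 targets 13.2% and 14.3%, and AP1 and ATF genes 14.4% and 12%.

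Mesenchymal and EMT genes had 15.6% of 77 regions closed and 14.3% opened. Snai1, an EMT factor, had 2 opened regions, the stronger at 14.2, and 1 closed of 7, and Tnc 4 closed and 1 opened of 12. SOX genes had 18.2% of 44 closed and 9.09% opened, with 3 closed of 5 at Sox5 and both regions closed at Sox2. A list of MLL, SWI/SNF and other chromatin factors, of which the study's text names only some as partners of SOX9, had 8.47% of 59 closed (3.67 to 18.4) and 16.9% opened (9.48 to 28.5). More regions were opened than closed at 6 of these genes and fewer at 4. Smarca2 had 3 opened and no closed of 8 regions, and its TSS region scored 95.6 in noDOX and 102 in ΔHMG-SOX9. Epidermal transcription factors (both classes) and keratinocyte activation (opened) were the 2 of 19 lists with a Wilson interval that left out the background. By the same interval, which lists did so depended on the setting. The opened difference of epidermal transcription factors was -4.03 points with peaks of a score of at least 5 and -5.25 by gene body, both with the background inside the interval. At a score of at least 5 the lists that left it out were instead differentiation genes and p53 targets, with closed shares 11.03 and 8.05 points above all regions, and by gene body Notch and SOX genes, with closed shares 11.3 and 14.5 points above. With lists of equal length they were the 2 lists named first, and without the 6 chromosomes also the Hedgehog genes, with an opened difference of -11.03 points.

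**Figure D4:**
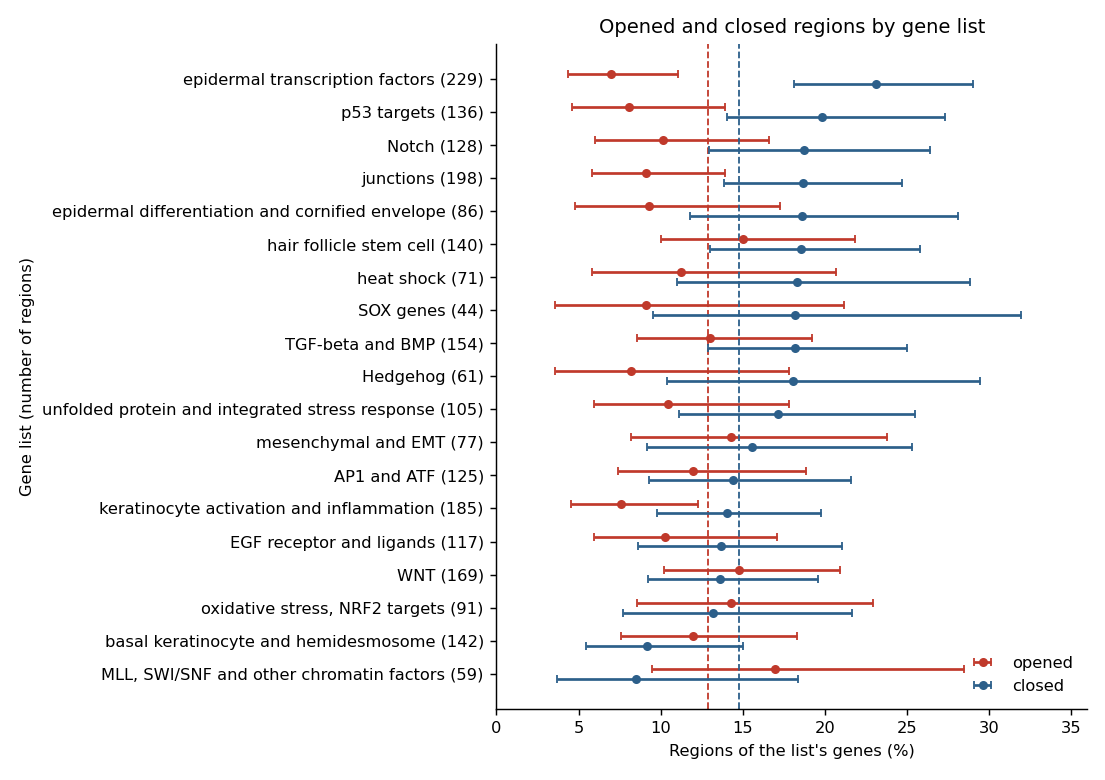
Percent of the regions of each gene list (number of regions in brackets) that were opened or closed; points are shares, bars 95% Wilson intervals and dashed lines the shares of all regions within 100 kb of a TSS, 12.9% opened and 14.8% closed. Epidermal transcription factors have the highest closed share (23.1%) and the lowest opened share (6.99%), and most other intervals cross the lines.

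The balance of opened and closed regions differed between chromosomes. On chromosome 5, 23.0% of 3670 regions were closed (21.6 to 24.4) and 8.501% opened (7.64 to 9.45), and on chromosome 16 22.2% of 2010 were closed and 8.46% opened. On chromosome 7, 10.98% of 3789 were closed (10.02 to 12.01) and 16.2% opened, and on chromosome 6 12.4% and 17.7%. The median rank shift of kept regions was -5.91 points on chromosome 5, -3.96 on 16, 3.15 on 7 and 2.31 on 4. Shift and balance did not go together on every chromosome, since X had a shift of -2.17 with 15.7% opened and 16.1% closed, and 13 a shift of 0.87 with 17.9% closed. Whole chromosomes thus stood apart, and whether this comes from the cells or the libraries was not tested.

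The median log2 score ratio to D0 over the regions present in both lists, which needs no noDOX control, was 0.26 on chromosome 5 in noDOX, 0.02 in ΔHMG-SOX9, 0.07 in WT-SOX9, -0.20 in ΔTA-SOX9, -0.25 in AFOS, 0.57 in SOX9+AFOS and 0.25 in SOX9+ARID1a. On chromosome 7 it was 0.11 in noDOX and 0.34 in ΔHMG-SOX9. Since these ratios also hold shifts of a whole list, the median over all regions of the list was subtracted, an adjustment chosen after seeing the data. Chromosome 5 then stood at 0.14 in noDOX, -0.11 in ΔHMG-SOX9, -0.02 in WT-SOX9, -0.14 in ΔTA-SOX9, -0.17 in AFOS, 0.40 in SOX9+AFOS and 0.39 in SOX9+ARID1a. These differences were not tested. Without the 6 chromosomes whose kept regions shifted by over 2 points, left out after seeing the data, the log2 ratio of opened over closed regions was -0.21.

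**Figure D5:**
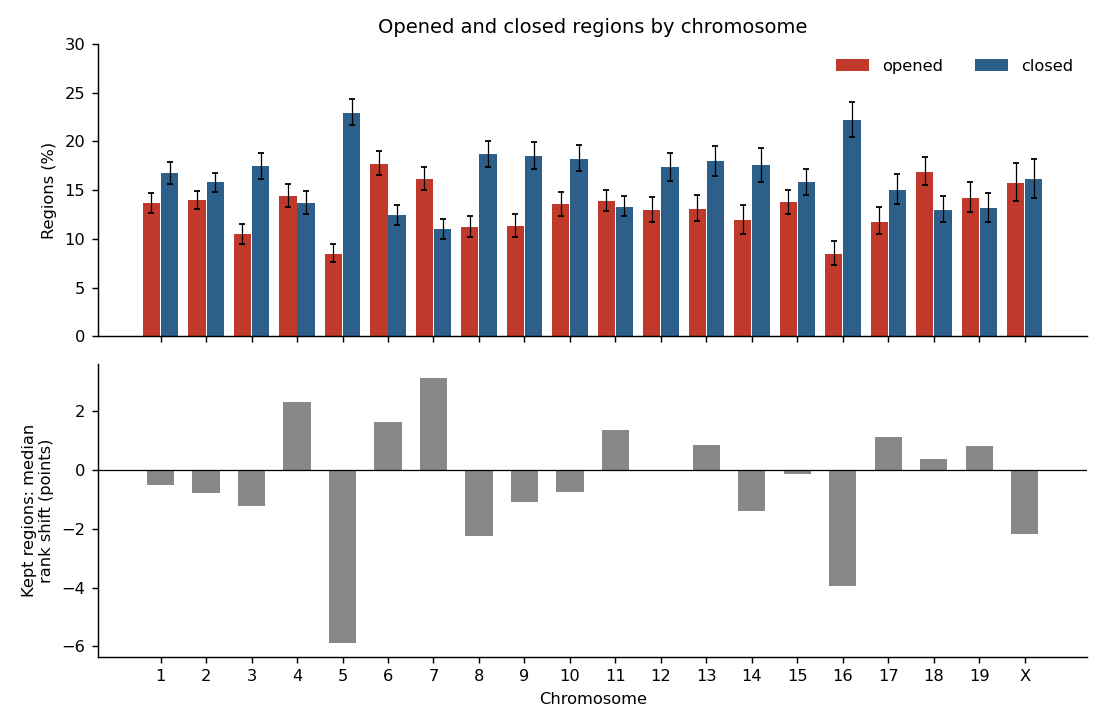
Top, percent of the regions of each chromosome that were opened or closed, with 95% Wilson intervals; bottom, median shift in percentile rank (ΔHMG-SOX9 minus noDOX, in points) of the kept regions. Chromosomes 5 and 16 have the highest closed shares (23.0% and 22.2%) and the lowest median shifts (-5.91 and -3.96), and chromosome 7 the lowest closed share (10.98%).

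Last, the regions were looked up in EpdSCs sorted from back skin of male CD1 mice that carried K14rtTA; TRE-myc-Sox9, before DOX (D0, postnatal day 21) and 1, 2, 6 and 12 weeks on DOX (W1 to W12), of which the W12 cells came from grafts. These lists share no sample with the culture lists. A D0 peak was found in 66.0% of kept (65.6 to 66.5), 38.5% of closed (37.5 to 39.5) and 16.9% of opened regions (16.1 to 17.8). At W12 the shares were 79.4%, 53.3% and 28.2%, in a longer list. Any in vivo list had a peak in 84.7% of kept, 65.7% of closed and 38.1% of opened regions.

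Closed regions were thus more often open in skin than opened ones in each of the 5 lists. Among regions with a score of 5 to 10 (the noDOX score for kept regions) the D0 shares were 49.4% for kept, 43.3% for closed and 17.5% for opened regions, so closed and kept regions of like score lay close and opened ones apart. Restricted to regions with an in vivo peak, 6493 were closed and 3091 opened, a log2 ratio of -1.07. The noDOX cells and the mice carried the same transgene by label and the ΔHMG-SOX9 cells did not, so construct and source cannot be told apart here either.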

How the data were processed

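ATAC-seq libraries of 2 replicates per group were aligned by the authors to GRCm38 (PEPATAC, per the study's methods, and Bowtie2 2.2.9 and MACS2 2.1.1 per the submitters' processing notes), and peaks were called with MACS2 on the merged replicates with duplicates kept. The deposited score of a peak, normalized by the authors and limited to 3 or more, was used to rank and filter peaks within a list, and scores and score ratios were also set side by side between lists as deposited. Leaving out a replicate was not possible. The lists of both groups were joined by 1 bp of overlap (Python 3.11.15, pandas 2.3.3, pysam 0.24.0) and merging and motif search were tested on simulated data. Distances ran from the region centre to TSSs of GENCODE vM21 protein-coding transcripts, and sequence was read from GRCm38.p6 of RefSeq. The highest peak score of a list stood for a region, and its percentile was taken among that list's peaks. Shares carry 95% Wilson intervals, and no test was run, since each group is 1 list.

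Named were the 6 opened and 6 closed regions of highest score and the 6 highest-scoring opened and closed TSS regions. Further named were the 5 kept regions with the largest rise and the 5 with the largest fall in rank. The genes were the 5 with most opened and 5 with most closed regions, and Sox9, Trp63, Gata3, Krt5, Krt14 and Vim. Of each gene list up to 4 members with the most changed regions were to be named by rule. Not all of them are given, and none for the unfolded protein, heat shock, NRF2 and AP1 lists. Some single regions and members were named after their values were seen (Dlc1, Fzd10, Ehf, Maf, Hhip and Smarca2 in detail). The regions compared, gene lists and motifs were chosen with earlier results of these data known. Alternatives were a score of at least 5, lists of equal length, overlap of at least 50% of the shorter peak, TSS distance and set, the whole region scanned, distal regions, gene bodies, mean scores, in vivo regions, and, chosen after seeing the data, a score band and left-out chromosomes. Authors' comparisons were not used. The values of 1 member of a gene list, which the rule would have named, are not reported here.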

Additional observations from a re-analysis of the deposited data

How the results depend on the processing

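No paired analysis was possible because the replicates of each group were pooled before peaks were called, and for the same reason no replicate could be left out. Of 219 values recomputed, 184 stayed within their counting interval (counts within 1.5 times, the rank shift within 1 SD) and 29 moved beyond it. The other 6 were counted as turned in direction. A gene-list difference could be counted as turned only where its interval, as reported, left out the background. Other gene-list differences changed sign without being counted so. The opened difference of Notch genes went from -2.77 to 3.12 points with peaks of a score of at least 5.

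With peaks of a score of at least 5, the shares near a TSS were 5.67% (opened), 7.66% (closed) and 29.6% (kept), the AP1 difference of opened over kept regions was 6.78 percentage points, and the closed share of epidermal transcription factors was 2.52 points above all regions. With lists of equal length the log2 ratio of opened over closed regions was -0.065. With the present peak at 5 or more and absence judged at 3, 3029 regions were opened and 4078 closed, a log2 ratio of -0.43. Among regions with an in vivo peak, 3091 were opened and 6493 closed, a ratio of -1.07. Within 5 kb of a TSS lay 16.4% (opened), 15.1% (closed) and 34.1% (kept), so that opened and closed regions changed order, and with TSSs of all annotated genes the shares were 7.75%, 9.30% and 28.7%.

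With the whole region scanned all 4 motif differences turned, to -3.45 points for p53/p63 and -2.41 for SOX (closed minus kept) and to -13.0 for RUNX and -7.28 for AP1 (opened minus kept). The widths scanned then differed, with medians of 227 bp in opened, 305 bp in closed and 619 bp in kept regions. Over 1 kb from a TSS the p53/p63 difference was 2.28 points, that of RUNX 3.22 and that of AP1 -0.74. Assignment by gene body turned the closed excess of epidermal transcription factors to -0.042 points, and the cause was not tested.

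In the alternatives chosen after seeing the data, regions with a score of 5 to 10 lay near a TSS in 4.09% (opened), 5.64% (closed) and 11.7% (kept) and gave a RUNX difference of 4.37 points, and without the 6 chromosomes the log2 ratio was -0.21. Depth is unknown, so a missing peak may lie just under the score limit.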

Other observations

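Opened and closed regions lay in runs of neighbours at some loci. The longest run of opened regions held 10 in a row over 108 kb at Parvb and Parvg on chromosome 15, which encode parvins of focal adhesions, with a median score of 4.52. The longest run of closed regions held 10 in a row over 362 kb on chromosome 5, with Sema3c, Cd36 and Gnat3 as the nearest genes and a median of 4.81, on the chromosome with the highest closed share. Runs of 7 closed regions lay on chromosome 12 at 27821666 to 27949270 (median 6.18, none of them within 100 kb of Sox11, whose 6 regions were all kept), on chromosome 2 nearest to Bbox1, Fibin and Slc5a12 (7.73) and on chromosome 9 nearest to Gm17571 (5.80). Most private regions had no neighbour of their own class, 68.9% of opened and 60.9% of closed ones.

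By GC content the regions were split into 5 groups of about equal size. From group 1 (29.1% to 44.7% GC) to group 5 (56.9% to 83.3%) the closed share was 22.7%, 19.7%, 17.5%, 13.6% and 7.46%. The opened share was 15.5%, 14.3%, 15.1% and 15.01% in groups 1 to 4 and 6.47% in group 5, so that it was lower in the last group alone and above the closed share in group 4. The median rank shift of kept regions was -2.69, -1.30, -0.21, 0.77 and 0.16 points in the same order.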
